A study of Homo sapiens with 12 samples.

Results

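The genes described here are 7 matrix metalloproteinases (MMP1, MMP2, MMP7, MMP9, MMP10, MMP13 and MMP14) and 3 tissue inhibitors of metalloproteinases (TIMP1, TIMP2 and TIMP3). They are 10 of the 11963 genes that the arrays measured with a probe set of 1 gene symbol. All probe sets whose only symbol is one of these genes were taken, which gave 16 probe sets: 4 for MMP14, 4 for TIMP3 and 1 for each of the other 8 genes. RNA was measured on 12 Affymetrix arrays from 3 human cell lines of head and neck cancer, which the labels call Detroit, Fadu and OECM1. Fadu cells come from a squamous carcinoma of the hypopharynx and OECM1 cells from one of the mouth; the labels do not say which of the Detroit lines was used. Each line had a parent group and an invasion subline group of 2 arrays. The sublines were collected as strongly invasive cells after passage through Matrigel, a basement membrane extract, and no other treatment, genotype or time point is labelled. The labels do not say whether the 2 arrays of a group came from separate cultures, so the p-values cover the spread among these arrays alone, and that spread may be technical.

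Matrix metalloproteinases are zinc-dependent enzymes that cut collagens, laminins, fibronectin and other proteins outside the cell. Most are secreted as inactive precursors, MMP14 is anchored in the cell membrane, and all are held in check by TIMPs, which bind the active site. In carcinomas of the head and neck these enzymes are studied because they open the basement membrane and the tissue beneath it, and many of their genes are switched on through AP-1 transcription factors.

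The 4 secreted enzymes encoded in 1 run of metalloproteinase genes on chromosome 11 gave the largest differences among the members. MMP7, MMP10, MMP13 and MMP1 stood high in the Detroit parent and were 9.95-fold to 38.0-fold lower on the arrays labelled Detroit invasion subline. TIMP2 and 1 of the 4 TIMP3 probe sets were also lower there, by 4.75-fold and 4.03-fold. The calls of MMP1, TIMP2 and that TIMP3 probe set each ended in at least 1 fit that left out a single array. No member probe set passed the test for a higher value in any subline, and none passed in either direction in the Fadu or OECM1 pair.

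Values are on the log2 scale, on which a difference of 1 is a factor of 2, and each probe set is compared only with itself across arrays, never with another probe set. A line at 4.52, the 40th percentile of all values, is called the dim limit; probe sets above it on at least 2 arrays were tested, which kept all 16. MMP7 lay above it on 3 arrays, MMP10 on 4, MMP13 on 5, MMP1 on 8 and the TIMP3 probe set 201150_s_at on 7. The TIMP3 probe sets 201147_s_at and 201149_s_at lay above it on 10 and the other 9 probe sets on all 12. A gene below the dim limit may be present at a low level, and RMA, which made these values, compresses low signals, so that fold changes against a dim group are understated. A lower value in bulk RNA can come from fewer cells with the transcript or from less transcript per cell, which cannot be told apart.

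The arrays labelled Detroit invasion subline stood close to Fadu. Over the 15123 probe sets tested, their mean profile correlated with the Fadu parent at r = 0.965 and with the Detroit parent at r = 0.893, whereas the Fadu and OECM1 sublines correlated with their own parents at r = 0.980 and r = 0.973. Every comparison that uses these 2 arrays is therefore given for arrays so labelled, and none of the Detroit pair's values can be had without them. Of the 6 epithelial marker genes on the arrays, 5 or 6 lay above the dim limit on both arrays of every group. Of 8 fibroblast markers 2 to 5 did so. Their mean level was 4.25 to 5.07 per array and highest in the Detroit parent. COL1A1 and PDGFRA did so in every group and COL1A2 in all but the OECM1 parent. PDGFRB, THY1 and DCN did so in some groups, and COL3A1 and LUM in none. Of 5 endothelial markers 0 or 1 did, which was TEK in all groups but the OECM1 parent. Of 5 leukocyte markers 0 or 1 did, which was CD14 or CD3E in all groups but the OECM1 parent, and PTPRC did so in none. The difference between 3 prime and 5 prime ACTB control probe sets, a sign of RNA quality, ran from -0.28 to 0.87 per array. It differed most within the Detroit subline duplicates, at -0.28 and 0.80. A control probe set for 18S ribosomal RNA differed in other groups, at 9.18 and 5.87 in the Fadu subline and 5.99 and 8.92 in the OECM1 parent. It also differed in the Detroit parent, at 6.395 and 8.09, and in the OECM1 subline, at 7.28 and 5.79. The Fadu parent read 6.03 and 6.79. It read 6.36 and 6.26 on the arrays labelled Detroit subline. The part of these differences in the results was not tested, beyond the fits with the ACTB difference as a covariate.

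MMP7, or matrilysin, is a small metalloproteinase made by epithelial cells rather than by stroma. Its values in the Detroit parent were 10.001 and 8.43, and on the arrays labelled Detroit subline they were 4.30 and 3.63. The remaining groups read 4.32 and 4.20 for the Fadu parent, 3.74 and 3.91 for its subline, 4.59 and 4.28 in the OECM1 parent, and 4.28 and 4.28 in the OECM1 subline. Only the Detroit parent was bright, and all other arrays lay near or below the dim limit. MMP7 fell by 5.25 on the log2 scale (SE 0.42, limma, adjusted p = 0.000185) in the Detroit pair, a 38.0-fold lower level. The call held without any single array but not in a fit on the 4 Detroit arrays alone, where the adjusted p by limma was 0.0562.

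MMP10, or stromelysin-2, degrades proteoglycans and fibronectin and can activate other MMP precursors. It read 8.98 and 8.19 in the Detroit parent and 4.51 and 3.49 on the arrays labelled Detroit subline. The Fadu parent followed at 5.39 and 5.003, and the Fadu subline at 3.90 and 4.49. Both OECM1 groups were dim, at 3.50 and 3.74 in the parent and 3.40 and 3.57 in the subline. Thus 4 arrays, those of the Detroit and Fadu parents, lay above the dim limit. MMP10 fell by 4.58 (SE 0.38, limma, adjusted p = 0.000185) in the Detroit pair, a 24.0-fold lower level, and every alternative that was run kept that call. In the Fadu pair the difference was -1.001 (SE 0.38, limma, adjusted p = 1), with both subline arrays below both parent arrays.

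The promoters of these genes are shown because MMP7 and MMP10 were among the 4 genes with the largest differences and belong to the AP-1 responsive MMP genes. RefSeq promoters of the GRCh38.p14 build were at hand for 5 of the 10 genes: MMP7, MMP10, MMP14, TIMP1 and TIMP3. Sequences of MMP1, MMP2, MMP9, MMP13 and TIMP2 are not shown. The 250 bases before the start are printed on the minus strand for MMP7 (chr11:102530748-102530997) and MMP10 (chr11:102780629-102780878). Capitals mark the match to the AP-1 motif TGANTCA, searched on both strands.
MMP7: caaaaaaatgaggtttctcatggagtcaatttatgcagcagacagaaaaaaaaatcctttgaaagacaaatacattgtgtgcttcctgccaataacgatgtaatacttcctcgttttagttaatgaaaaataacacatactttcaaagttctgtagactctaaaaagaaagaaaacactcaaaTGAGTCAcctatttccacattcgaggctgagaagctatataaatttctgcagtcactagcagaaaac
MMP10: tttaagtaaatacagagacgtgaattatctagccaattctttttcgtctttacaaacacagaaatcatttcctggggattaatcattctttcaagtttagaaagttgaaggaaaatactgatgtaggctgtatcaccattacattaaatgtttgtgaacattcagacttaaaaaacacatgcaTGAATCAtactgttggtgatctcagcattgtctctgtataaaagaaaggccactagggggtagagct
In both genes the match lies 67 to 61 bases before the start, as TGAGTCA in MMP7 and TGAATCA in MMP10. A TATAAA match on the gene's strand lies 30 to 25 bases before the start of MMP7 and 31 to 26 bases before that of MMP10. Of 35116 RefSeq promoter windows of this length, 6.57% hold TGANTCA and 10.7% hold TATAAA. The windows of MMP14, TIMP1 and TIMP3 hold neither. They hold the GC-box core GGGCGG, on either strand, 1, 2 and 5 times, and MMP7 and MMP10 do not; 42.6% of all windows hold it. GC content was 33.6% and 34.4% for MMP7 and MMP10, and 56.8%, 64.8% and 72.4% for MMP14, TIMP1 and TIMP3, beside a median of 58.0% over all windows. The ETS core GGAAG occurs 2 times for MMP7 and for TIMP1 and 1 time for MMP14, and 65.1% of windows hold it. GGAAG and TATAAA were searched on both strands as well, and no match overlaps a match to another motif. These letter matches describe the sequence only; binding was not measured.

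MMP13, or collagenase-3, cuts fibrillar collagen, with a preference for the type found in cartilage. It read 7.52 and 7.02 in the Detroit parent, and 3.89 and 4.02 on the arrays labelled Detroit subline. The Fadu parent gave 5.69 and 6.99, and the Fadu subline gave 3.88 and 4.18. OECM1 arrays were dim apart from 1 subline array, at 4.27 and 4.24 in the parent and 4.26 and 4.71 in the subline. MMP13 was therefore visible in the parents of Detroit and Fadu and below the dim limit in both of their sublines. It fell by 3.31 (SE 0.38, limma, adjusted p = 0.000957) in the Detroit pair, a 9.95-fold lower level. In the Fadu pair the difference was -2.31 (SE 0.38, limma, adjusted p = 0.277), and its unadjusted p of 8.47e-05 was the smallest among the members there. Without Fadu parent replicate 1, the lower of the parent arrays, the Fadu difference was -2.95 with an adjusted p of 0.0407 by limma.

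MMP1, or interstitial collagenase, opens fibrillar collagen of skin and stroma. Its values were 8.20 and 9.11 in the Detroit parent and 4.55 and 3.82 on the arrays labelled Detroit subline. The Fadu parent read 7.78 and 6.66 and the Fadu subline 4.08 and 5.30. The OECM1 duplicates disagreed, at 7.77 and 3.88 in the parent and 3.95 and 5.96 in the subline. MMP1 was lower on every subline array than on either parent array in the Detroit and Fadu pairs, and the OECM1 groups overlapped. The Detroit difference of -4.47 (SE 1.06) passed with an adjusted p of 0.0499 by limma, at the edge of the threshold. The Fadu difference was -2.53 (adjusted p = 1 by limma) and the OECM1 difference -0.87 (adjusted p = 1.000 by limma). The Detroit call ended without Detroit subline replicate 2 (adjusted p = 0.177 by limma), Detroit parent replicate 1 (0.155) or replicate 2 (0.205), and without any 1 of the 4 Fadu arrays or the 2 OECM1 subline arrays (0.0582 to 0.0744). The OECM1 difference turned to 1.07 without OECM1 parent replicate 1 and to 0.13 without OECM1 subline replicate 1, with adjusted p-values by limma of 0.810 and 1.000.

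**Figure D1:**
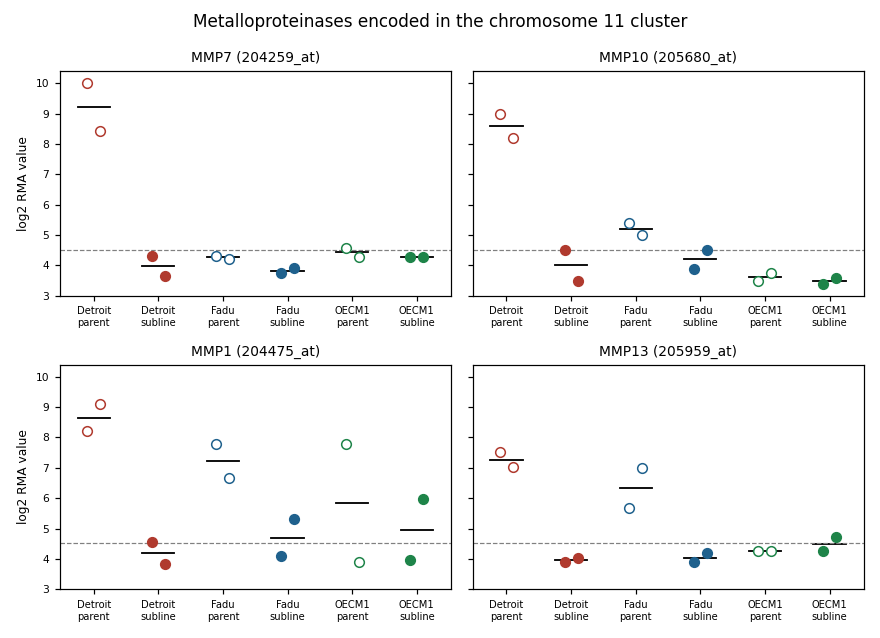
Each panel plots the log2 value of MMP1, MMP7, MMP10 or MMP13 on the vertical axis for the 6 groups on the horizontal axis, with 1 point per array, open for parent and filled for subline; the black line is the group mean and the dashed line the dim limit of 4.52. The Detroit parent holds the highest group mean of all 4 genes, from 7.27 for MMP13 to 9.22 for MMP7, and the arrays labelled Detroit subline average 3.96 to 4.18.

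These 4 genes lie in a run of 9 metalloproteinase genes on chromosome 11, in the order MMP7, MMP20, MMP27, MMP8, MMP10, MMP1, MMP3, MMP12 and MMP13. The neighbours MMP3, MMP8, MMP20 and MMP27 were above the dim limit on 0 arrays, with highest values of 3.64, 3.64, 3.40 and 3.38. High values in the Detroit parent were therefore not read by the probe sets of these neighbours. A probe set that does not respond would look the same as a silent gene. MMP12, or macrophage elastase, was dim as well, with 1 array above the limit, and it is singled out here after its values were seen. Its parent arrays read 4.51 and 5.04 in Detroit, 4.48 and 4.02 in Fadu and 4.06 and 4.23 in OECM1. Its subline arrays read 3.34 and 3.47, 3.35 and 3.31, and 3.61 and 3.50 in the same order. Every subline array of MMP12 thus lay below every parent array, although nearly all were under the dim limit. Without the dim filter, over 22215 probe sets, MMP12 fell by 1.37 in the Detroit pair (SE 0.21, limma, adjusted p = 0.00684). Its differences of -0.92 in Fadu (adjusted p = 1 by limma) and -0.60 in OECM1 (adjusted p = 1.000 by limma) did not pass. Among all 22215 probe sets, 115 (0.518%) had both subline arrays below both parent arrays in all 3 lines. MMP7 is 1 of them, by a margin in OECM1 that disappears in rounding to 2 decimals.

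MMP2 and MMP9 are the gelatinases, which digest denatured collagen and the collagen of basement membranes, the material of the Matrigel barrier. No difference of either passed the test in any pair. MMP2 read 6.69 and 5.35 in the Detroit parent and 4.97 and 4.99 on the arrays labelled Detroit subline (difference -1.04, SE 0.49, limma, adjusted p = 0.338). In OECM1 it read 6.68 and 6.55 in the parent and 4.88 and 6.33 in the subline (difference -1.01). In Fadu the order was the other way, at 5.22 and 5.55 in the parent and 5.75 and 5.92 in the subline (difference 0.45). The groups did not overlap in any of the 3 pairs, but the duplicates of the Detroit parent and of the OECM1 subline lay far apart.

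MMP9 differed most in the Fadu pair. It read 5.09 and 5.32 in the Fadu parent and 6.87 and 6.08 in the Fadu subline, where the 2 highest values of all 12 arrays lie. That difference of 1.27 (SE 0.36) had an unadjusted p of 0.00464 and an adjusted p of 1 by limma. Detroit gave 5.50 and 5.49 in the parent and 5.90 and 5.28 on the arrays labelled subline, and OECM1 gave 4.60 and 5.19 in the parent and 5.29 and 4.65 in the subline. Both pairs overlapped, with differences of 0.09 and 0.07.

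MMP14, the membrane-type enzyme that activates the MMP2 precursor at the cell surface together with TIMP2, was above the dim limit on all 12 arrays with each of its 4 probe sets. Probe set 202828_s_at read 7.92 and 6.94 in the Detroit parent and 6.63 and 6.35 on the arrays labelled Detroit subline. It read 6.11 and 6.67 for the Fadu parent, 6.10 and 5.97 for its subline, 6.84 and 6.998 in the OECM1 parent, and 7.05 and 7.26 in the OECM1 subline. Over the 4 probe sets the difference was -1.13 to -0.46 in the Detroit pair, -0.51 to -0.26 in the Fadu pair, and 0.24 to 0.56 in the OECM1 pair. All 4 had the same sign within a line, and in OECM1 all 4 had both subline arrays above both parent arrays. None passed; the smallest adjusted p by limma was 0.228, for 202828_s_at in Detroit. Detroit parent replicate 1 was the brightest Detroit array for all 4 probe sets, and without it the Detroit difference of 217279_x_at turned to 0.26. These probe sets read 1 gene and are not separate evidence. The order of the group means was the same for 3 of the 4: the Fadu subline was lowest and the OECM1 subline highest.

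**Figure D2:**
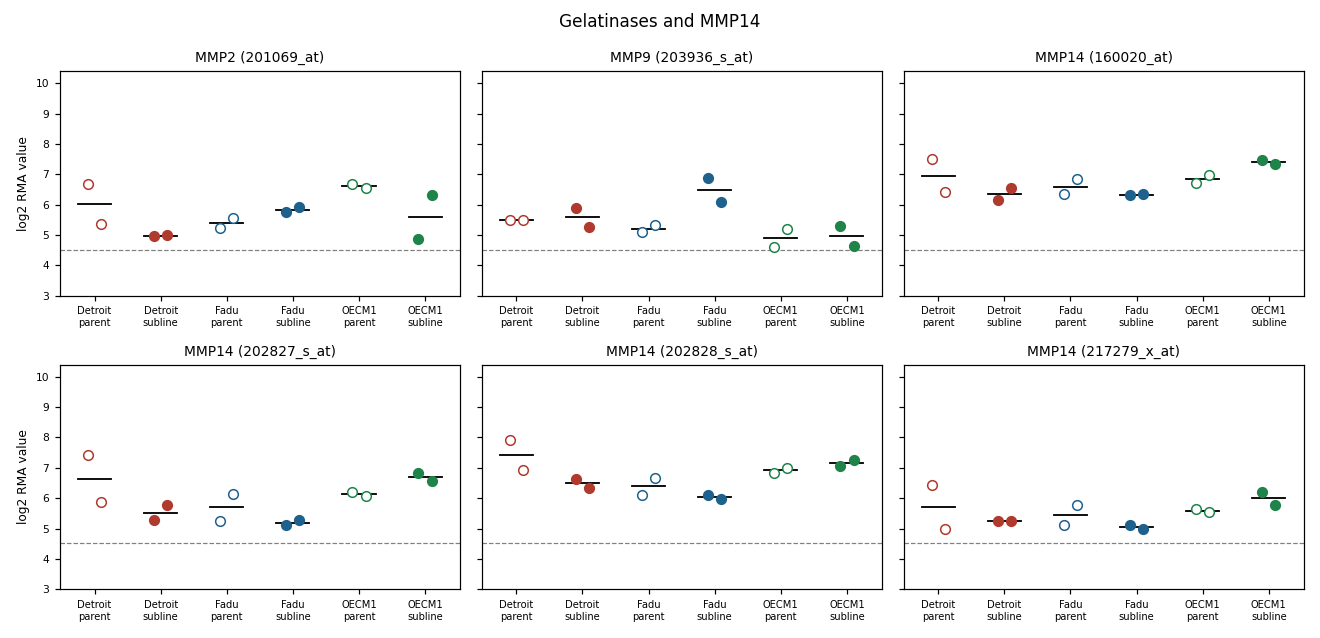
Each panel plots the log2 value of MMP2, MMP9 or an MMP14 probe set on the vertical axis for the 6 groups on the horizontal axis, with 1 point per array, open for parent and filled for subline; the black line is the group mean and the dashed line the dim limit of 4.52. All values lie above the dim limit, the Fadu subline is highest for MMP9 at a mean of 6.47, and the OECM1 subline is highest for 3 of the 4 MMP14 panels.

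TIMP1, a secreted inhibitor of most MMPs, was the one inhibitor with a higher mean in all 3 sublines. It read 8.05 and 7.57 in the Detroit parent and 9.40 and 8.58 on the arrays labelled Detroit subline. In Fadu it read 8.95 and 8.02 in the parent and 9.64 and 9.67 in the subline. In OECM1 it read 9.24 and 6.95 in the parent and 8.88 and 9.11 in the subline, so that the groups overlapped there and not in the other pairs. The differences were 1.18 (SE 0.63) in Detroit, 1.17 (SE 0.63) in Fadu and 0.90 (SE 0.63) in OECM1, with adjusted p-values by limma of 0.424, 1 and 1.000. Without OECM1 parent replicate 2, at 6.95, the OECM1 difference turned to -0.24.

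TIMP2, which both inhibits MMP2 and helps MMP14 to activate its precursor, gave differences of both signs. It read 8.77 and 7.17 in the Detroit parent and 5.90 and 5.55 on the arrays labelled Detroit subline. TIMP2 was low in both Fadu groups, at 5.65 and 5.57 in the parent and 5.93 and 5.80 in the subline. The OECM1 arrays read 7.48 and 6.69 in the parent and 8.04 and 7.91 in the subline. TIMP2 fell by 2.25 in the Detroit pair (SE 0.47, limma, adjusted p = 0.0278). Differences of 0.26 in Fadu and 0.89 in OECM1 did not pass. The Detroit call ended without Detroit subline replicate 2 (adjusted p = 0.117 by limma), Detroit parent replicate 1 (0.155, with a difference of -1.45) or Fadu subline replicate 1 or 2 (0.0524 and 0.0527).

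TIMP3, the inhibitor that stays bound to the matrix and also blocks several ADAM proteases, was read by 4 probe sets that did not give 1 answer. Probe set 201149_s_at read 7.73 and 7.07 in the Detroit parent and 4.84 and 5.94 on the arrays labelled Detroit subline. The same probe set read 4.39 and 4.23 for the Fadu parent, 4.99 and 4.75 for its subline, 5.19 and 5.28 in the OECM1 parent, and 6.77 and 6.30 in the OECM1 subline. The 2 groups of each line were thus apart, with the subline lower in Detroit and higher in Fadu and OECM1. It fell by 2.01 in the Detroit pair (SE 0.37, limma, adjusted p = 0.0155), and that call ended without Detroit parent replicate 1 (adjusted p = 0.135 by limma). Its OECM1 difference of 1.30 (SE 0.37) had an adjusted p of 0.803 by limma.

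The other TIMP3 probe sets gave Detroit differences of -1.78 for 201147_s_at (adjusted p = 0.0750 by limma), -0.96 for 201148_s_at (0.156) and -0.02 for 201150_s_at (0.996), which turned to 1.18 without Detroit subline replicate 1. Probe set 201147_s_at read 7.42 and 7.93 in the Detroit parent and 5.08 and 6.71 on the arrays labelled Detroit subline; without subline replicate 2 its difference was -2.60 with an adjusted p of 0.00721 by limma. With the ACTB difference as a covariate it passed as well, at -1.99 (adjusted p = 0.0309 by limma). Probe set 201150_s_at read 4.13 and 6.54 on the arrays labelled Detroit subline, the widest duplicate gap of any inhibitor probe set at 2.42. In OECM1 all 4 TIMP3 probe sets had both subline arrays above both parent arrays, with differences of 0.63 to 1.30. In Fadu they ranged from -0.21 to 0.57, and none of the OECM1 or Fadu values passed.

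**Figure D3:**
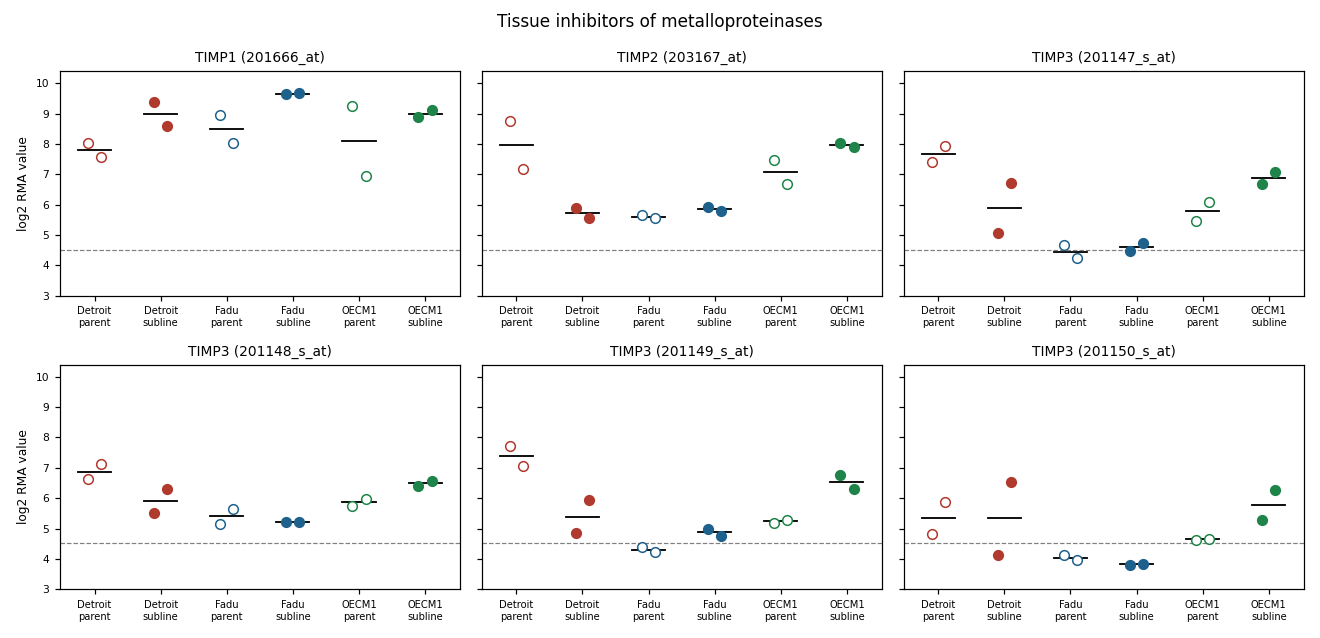
Each panel plots the log2 value of TIMP1, TIMP2 or a TIMP3 probe set on the vertical axis for the 6 groups on the horizontal axis, with 1 point per array, open for parent and filled for subline; the black line is the group mean and the dashed line the dim limit of 4.52. TIMP1 means are higher in each subline than in its parent, whereas TIMP2 and the TIMP3 probe set 201149_s_at are lower on the arrays labelled Detroit subline and higher in the OECM1 subline.

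Counted over the pairs, 6 of 16 member probe sets, of 6 genes, were lower on the arrays labelled Detroit subline, 0 were higher and 10 did not pass, in a comparison that called 3.02% of all probe sets tested. The median member difference was -1.08, beside -0.01 over all probe sets. Both subline arrays lay below both parent arrays for 11 member probe sets and above them for 1, beside 18.8% and 19.8% of all probe sets. In the Fadu pair 0 members passed, beside 0.0198% of all probe sets called. An unadjusted p under 0.05 by limma was reached there by 4 members and by 265 of all 15123 probe sets. There the median was -0.24, with 7 members apart and lower and 5 apart and higher, beside 17.0% and 15.5% overall. In the OECM1 pair 0 members passed, beside 0.00661% of all probe sets called. An unadjusted p under 0.05 by limma was reached there by 2 members and by 498 of all 15123 probe sets. The OECM1 median was 0.47, with 2 members apart and lower and 9 apart and higher, beside 12% and 12.7% overall. The 9 are the 4 probe sets of MMP14, the 4 of TIMP3 and TIMP2, so that they come from 3 genes. In every pair MMP14 and TIMP3 enter the counts and medians with 4 probe sets each. The members were chosen with earlier results of these data known, so the counts describe them and do not test the family.

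**Figure D4:**
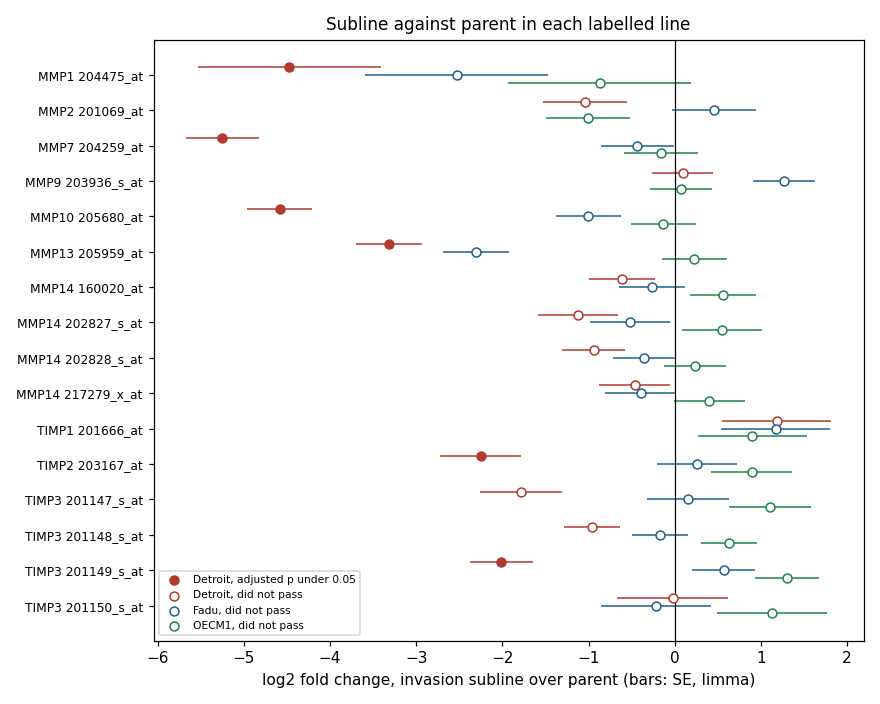
The horizontal axis is the log2 fold change of invasion subline over parent for each of the 16 member probe sets on the vertical axis, with bars of 1 SE from limma; red is Detroit, blue Fadu and green OECM1, and filled points passed an adjusted p of 0.05. The 6 filled points are all Detroit, from -5.25 for MMP7 to -2.01 for the TIMP3 probe set 201149_s_at, and the OECM1 points of MMP14, TIMP2 and TIMP3 lie right of 0.

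Whether the subline difference varied between lines was tested with an F test over the 3 pairs. It was called for 4 member probe sets, beside 0.602% of all probe sets. These were MMP7 (limma, adjusted p = 0.00565), MMP10 (0.00761), MMP13 (0.0264) and the TIMP3 probe set 201149_s_at (0.0308). MMP7 and MMP10 kept the call without any single array. MMP13 lost it without Detroit parent replicate 1, either Fadu subline array or any OECM1 array (adjusted p by limma 0.0616 to 0.126), and with array weights (0.116). The call of 201149_s_at ended without Detroit parent replicate 1 or any Fadu or OECM1 array (0.0650 to 0.175). TIMP2, at an adjusted p of 0.129 by limma, became called without Detroit parent replicate 2 (0.0204), and 201147_s_at, at 0.216, without Detroit subline replicate 2 (0.0200). For TIMP1 the adjusted p by limma was 1.000, with differences of 0.90 to 1.18.

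An average over the 3 line pairs called 0 members, beside 0% of all probe sets, with 645 probe sets and 2 members at an unadjusted p under 0.05 by limma. Those members were TIMP1 and MMP1. TIMP1 was higher in the sublines by 1.08 (SE 0.19, unadjusted p = 0.00284, adjusted p = 0.849, limma), with the difference positive in 3 of 3 pairs, and by 1.04 with the Detroit pair left out. MMP1 gave -2.62 (SE 0.69, unadjusted p = 0.0141, adjusted p = 0.849, limma), negative in 3 of 3 pairs, and -1.70 without the Detroit pair. With that pair left out the average for TIMP2 turned from -0.37 to 0.57, and for the TIMP3 probe sets 201147_s_at, 201148_s_at and 201149_s_at to 0.63, 0.23 and 0.93.

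The parents themselves differed in these genes. Against the Detroit parent the Fadu parent was lower for 6 member probe sets of 4 genes, beside 2.29% of all probe sets called. These were MMP7 (-4.96, limma, adjusted p = 0.000212), MMP10 (-3.39, 0.00124), TIMP2 (-2.36, 0.0266), and the TIMP3 probe sets 201147_s_at (-3.23, 0.00583), 201148_s_at (-1.47, 0.0434) and 201149_s_at (-3.10, 0.00179). The TIMP2 call ended without Detroit parent replicate 1 or any of the 4 Fadu arrays (adjusted p by limma 0.0527 to 0.179), 201147_s_at without Fadu parent replicate 2 (0.0558), and 201148_s_at without any 1 array of the Detroit parent, Fadu or OECM1 (0.0523 to 0.355).

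Against the Detroit parent the OECM1 parent was lower for 4 member probe sets of 4 genes, beside 3.29% called overall. They were MMP7 (-4.78, limma, adjusted p = 0.000158), MMP10 (-4.97, 6.83e-05), MMP13 (-3.02, 0.00170) and the TIMP3 probe set 201149_s_at (-2.17, 0.0100). The last call ended without Detroit parent replicate 1 (adjusted p = 0.0841 by limma) or OECM1 parent replicate 1 (0.0686). MMP1 was called without OECM1 parent replicate 1 (-4.77, adjusted p = 0.0359 by limma), and 201147_s_at, at -1.90 and 0.0570, without Detroit subline replicate 1 or 2 (0.00809 and 0.00781). Both comparisons share the Detroit parent arrays.

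Between the OECM1 and Fadu parents 1 member was called, beside 2.43% overall: MMP13 was lower in OECM1 (-2.08, SE 0.38, limma, adjusted p = 0.0159). It lost the call without Fadu parent replicate 2 (0.0859) or OECM1 parent replicate 1 or 2 (0.0806 and 0.0638). MMP10, at -1.58 with an adjusted p of 0.0578 by limma, and the TIMP3 probe set 201147_s_at, at 1.33 and 0.204, became called when both arrays labelled Detroit subline were left out (0.0213 and 0.0481). The same held when either 1 of those arrays was left out, with adjusted p-values by limma of 0.0207 and 0.0213 for MMP10 and 0.0492 and 0.0471 for 201147_s_at.

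Because the arrays labelled Detroit subline stood close to Fadu, their member values were set against the Fadu parent. With 0% of all probe sets called by limma and 558 at an unadjusted p under 0.05, 0 of 16 members passed and 5 had an unadjusted p under 0.05. MMP13 was the nearest to the threshold, at -2.38 (SE 0.38, limma, adjusted p = 0.138), followed by MMP10 at -1.20, TIMP3 201147_s_at at 1.45, TIMP3 201149_s_at at 1.09 and MMP1 at -3.04, each with an adjusted p of 1.000 by limma. Without Detroit subline replicate 1, which leaves 1 array in that group, the difference was -2.32 for MMP13. For the TIMP3 probe sets 201147_s_at, 201149_s_at and 201150_s_at it was then 2.26, 1.64 and 2.50. The duplicates labelled Detroit subline lay further apart than those of any other group. Their root mean square difference over the probe sets tested was 0.87, beside 0.43 to 0.74 in the other groups. The 0 of 16 is therefore no evidence of no difference from the Fadu parent.

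As a description with no test, the mean of these 2 arrays was nearer to the Fadu parent than to the Detroit parent for 14 of 16 member probe sets (87.5%), beside 61.1% of all probe sets. The 2 exceptions were MMP9 and the TIMP3 probe set 201150_s_at, for which the Detroit parent was the nearest of the other 5 groups. MMP1, MMP7, MMP10 and MMP13 were nearest to the Fadu subline, from which they differed by -0.51, 0.14, -0.20 and -0.08. For MMP7, MMP10 and MMP13 both of these means lay below the dim limit, where nearness says little. There the differences from OECM1 were -0.31 for MMP7 (subline), 0.38 for MMP10 (parent) and -0.30 for MMP13 (parent). TIMP2 was nearest to the Fadu parent, at a difference of 0.11. The other 3 TIMP3 probe sets were nearest to the OECM1 parent, at 0.12, 0.04 and 0.16.

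Across the 6 groups the order of the means differed by gene. For MMP7 the Detroit parent stood alone at 9.22 ± 1.11 (SD, n = 2), and the other 5 means lay between 3.82 and 4.44, below the dim limit. For MMP10 the Detroit parent at 8.58 ± 0.56 was followed by the Fadu parent at 5.20 ± 0.27, and the other 4 means lay between 3.49 and 4.20. For MMP13 the Detroit parent at 7.27 ± 0.36 and the Fadu parent at 6.34 ± 0.92 led, and their difference of -0.93 did not pass (limma, adjusted p = 0.282). For MMP1 the 3 parents held the 3 highest means, at 8.65 ± 0.64 in Detroit, 7.22 ± 0.79 in Fadu and 5.83 ± 2.75 in OECM1, and no difference between parents passed. For TIMP2 the OECM1 subline at 7.98 ± 0.09 and the Detroit parent at 7.97 ± 1.13 were highest, and both Fadu groups and the arrays labelled Detroit subline lay between 5.61 and 5.87.

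For the 5 genes whose group means spanned at least 2 on the log2 scale in their representative probe set, the 3 genes with the most similar profile were taken by Pearson's r over the 12 arrays. These r values describe likeness over arrays that fall into 6 groups and share the bright Detroit parent, so r is also given over the 10 arrays without it. MMP7 was most like COL5A2 (r = 0.99, and 0.62 without the Detroit parent), CEACAM6 (0.99 and 0.10) and CYP24A1 (0.98 and 0.31). MMP10 was most like S100A9 (0.98 and 0.90), CASP1 (0.98 and 0.82) and S100A8 (0.96 and 0.87). The MMP7 likeness thus rested on the Detroit parent to a greater degree than that of MMP10.

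MMP13 was most like MATN2 (0.91 and 0.80), GPX2 (0.90 and 0.91) and SQOR (0.89 and 0.81). MMP1 was most like PSPC1 (0.93 and 0.90), SLC25A12 (0.88 and 0.80) and RAB27A (0.88 and 0.80). TIMP2 was most like MET (0.95 and 0.92), ITGA2 (0.95 and 0.92) and TNFRSF21 (0.95 and 0.95), and its likeness hardly moved without the Detroit parent.

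Other genes of the same system were counted from 4 lists, with 1 probe set per gene. Of all 8992 genes, 3.15% were called in the Detroit pair and 2.35% between the Fadu and Detroit parents. Between the OECM1 parent and the Detroit and Fadu parents 3.3% and 2.69% were called. A count of 1 or 2 in a list this short says little about the list. Of 16 tested genes among other metalloproteinases and inhibitors, 1 was lower on the arrays labelled Detroit subline: ADAM9, a membrane-anchored protease with a disintegrin domain (-3.18, SE 0.45, limma, adjusted p = 0.00371). ADAM9 was also lower in the Fadu than in the Detroit parent (-2.28, 0.0261) and higher in the OECM1 than in the Fadu parent (3.14, 0.00520). The list's Detroit median was -0.03, beside -0.01 over all genes. Of 17 tested activators and cell surface partners, 2 were lower there: PLAT, the tissue plasminogen activator (-5.02, SE 0.50, limma, adjusted p = 0.000353), and ITGA2, a subunit of a collagen-binding integrin (-2.04, SE 0.43, 0.0303). The Detroit median of this list was -0.13. PLAT was also lower in the Fadu parent (-3.75, 0.00374) and the OECM1 parent (-2.56, 0.0192) than in the Detroit parent. ST14, which encodes the membrane protease matriptase, was lower in the OECM1 parent than in the Detroit parent (-1.83, 0.0180) and the Fadu parent (-1.94, 0.0159).

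Among 15 tested matrix substrates, 3 were lower on the arrays labelled Detroit subline: the collagen gene COL5A2 (-4.17, SE 0.39, limma, adjusted p = 0.000301), the fibronectin gene FN1 (-3.64, SE 0.64, 0.0128) and the basement membrane collagen gene COL4A1 (-2.34, SE 0.50, 0.0310). The substrate median in that comparison was -0.44. COL5A2 and FN1 were lower in the Fadu than in the Detroit parent, at -4.31 and -2.95, and in the OECM1 parent COL5A2 was lower, at -4.28, and TNC higher, at 2.62. Against the Fadu parent the OECM1 parent was higher for 4 substrates: TNC (3.12, limma, adjusted p = 0.00314), COL4A1 (2.99, 0.0112), LAMB1 (2.74, 0.0126) and FN1 (3.50, 0.0168). That comparison called 2.69% of all genes, and the substrate median was 1.66, beside -0.03 over all genes.

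Of the 21 tested AP-1, ETS and other factors known to act on MMP promoters, 0 were called in any of the 9 comparisons by limma. Those comparisons called 0% to 3.3% of all genes, and the Detroit median of the factors was 0.25. In the Fadu and OECM1 pairs, and between the arrays labelled Detroit subline and the Fadu parent, 0 genes of any of the 4 lists were called. These comparisons called 0.0222%, 0% and 0% of all genes, so the zeros say little about the lists. The share of all 8992 genes called in the Detroit pair was 3.15%. The F test over the 3 pairs called PLAT, 1 of 17 activators and partners, and COL5A2, 1 of 15 substrates, beside 0.589% of all genes.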

How the data were processed

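RNA of 3 cell lines of head and neck cancer was measured on 12 Affymetrix arrays, 2 for each parent and each invasion subline. The log2 values were made by the authors with RMA, which corrects background, normalises between arrays and summarises probes, and deposited for 22283 probe sets per array; the submitters' processing notes also name Partek, version 7. The genome build and annotation behind the array names are not given in the sources used here. There were 0 columns of values left unused.

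Probe sets were named from the platform annotation: 19065 had 1 gene symbol, 1043 several and 2107 none, and 68 were controls. Using limma 3.58.1 under R 4.3.3, a linear model with 6 group means, moderated by empirical Bayes along an intensity trend, was applied to the 15123 probe sets above the dim limit on at least 2 arrays. Benjamini-Hochberg adjustment ran over all of them, and the threshold was 0.05. The average over line pairs used 6 group means, blocked by line. Every member probe set is named; from each gene list up to 4 called genes per comparison are named, by smallest p; profile neighbours are the 3 genes with the highest r. MMP12 was added outside this rule. The members and lists were chosen with earlier results of these data known. The fit was tested on simulated data with independent normal noise, in which the planted changes were the same in all 3 lines. In a line pair it recovered 8.91% to 9.69% of planted log2 changes of 1 and 62.2% to 64.3% of changes of 2. Adjusted p-values depend on how many probe sets change, and the measured Fadu and OECM1 pairs called only 3 and 1. Recovery in the Fadu and OECM1 pairs may be lower than in the simulation. A member difference near 1 that did not pass is therefore no evidence of no change. Alternatives left out the filter, used 1 probe set per gene, fitted only the groups compared, added a replicate block, array weights or the ACTB difference, centred arrays on the median, and left out each array in turn. The small number of arrays limits the precision.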

Additional observations from a re-analysis of the deposited data

Results flagged for a closer look

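For 4 member probe sets the difference between invasion subline and parent itself differed between the 3 lines by the F test of limma: MMP7 (adjusted p = 0.00565), MMP10 (0.00761), MMP13 (0.0264) and the TIMP3 probe set 201149_s_at (0.0308). For MMP7, MMP10 and MMP13 the difference was largest in the Detroit pair, at -5.25, -4.58 and -3.31, beside -0.44, -1.001 and -2.31 in Fadu and -0.16, -0.13 and 0.23 in OECM1. For 201149_s_at the difference was -2.01 in Detroit, 0.57 in Fadu and 1.30 in OECM1. All 4 tests include the arrays labelled Detroit invasion subline, which stood nearer to the Fadu parent than to the Detroit parent over the whole array; the part of this in the 4 results was not tested.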

How the results depend on the processing

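Over all member values and alternatives, 2585 kept their side of the threshold with no change of sign beyond their SE, and 0 called values changed sign; 71 calls ended, 21 values became called, and 21 uncalled values changed sign by more than their SE. In the Detroit pair the calls of MMP10 and MMP13 held under every alternative run, and that of MMP7 under all but the fit on the Detroit arrays alone. MMP1 also lost its call without the dim filter (limma, adjusted p = 0.0666), with array weights (0.0812) and with arrays centred on the median (0.0711). TIMP2 lost its call with array weights (0.0659), and, like the TIMP3 probe set 201149_s_at, on the Detroit arrays alone (0.270 and 0.240). The fit on only the groups compared called 3 members and 44 probe sets in Detroit, and 1 and 0 probe sets in Fadu and OECM1. At gene level Detroit had 295 calls, OECM1 0 and the OECM1 parent against the Detroit parent 306. Without the dim filter OECM1 had 5.

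Array weights gave 262 calls over the whole array in Detroit, 5 in Fadu, 0 in OECM1, 756 between the Fadu and Detroit parents and 290 between the OECM1 and Detroit parents, with 0 members between the OECM1 and Fadu parents. The ACTB covariate gave 537 between the Fadu and Detroit parents, 654 between the OECM1 and Fadu parents, 5 between the arrays labelled Detroit subline and the Fadu parent, and 146 for the difference between lines. Leaving out both arrays labelled Detroit subline, an alternative chosen after seeing the data, gave 0 calls in OECM1 and 553, 765 and 610 between the parents (Fadu and Detroit, OECM1 and Detroit, OECM1 and Fadu), with 3 members in the last.

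Leaving out 1 array at a time gave, for members and the whole array, 3 to 6 and 174 to 1366 calls in Detroit, 0 to 1 and 0 to 4 in Fadu, and 0 and 0 to 6 in OECM1. The ranges were 3 to 6 and 84 to 551 between the Fadu and Detroit parents, 3 to 5 and 219 to 766 between the OECM1 and Detroit parents, and 0 to 3 and 71 to 611 between the OECM1 and Fadu parents. They were 0 to 4 and 0 to 306 between the arrays labelled Detroit subline and the Fadu parent, 2 to 5 and 43 to 328 for the difference between lines, and 0 and 0 for the average. A group left with 1 array was assumed to vary like the others. The cause of these changes was not tested.

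Equal replicate numbers did not pair the arrays: deviations of same-numbered arrays correlated at -0.17 in Detroit, -0.41 in Fadu and -0.40 in OECM1. With 2 arrays per group the deviations mirror each other, so opposite-numbered arrays deviated alike to the same degree. The ACTB difference crossed too, in Fadu (subline -0.05 and 0.40, parent 0.55 and -0.23) and OECM1 (0.06 and 0.63, 0.87 and 0.04). A link between them was not tested. With the replicate block 3 members and 183 probe sets were called in Detroit, 0 in Fadu, 0 in OECM1, and 2 members and 30 probe sets for the difference between lines. The block ended the Detroit calls of MMP1 (limma, adjusted p = 0.142), TIMP2 (0.0535) and TIMP3 201149_s_at (0.0813), and the calls between lines of MMP13 (0.0824) and 201149_s_at (0.213). Crossed replicate numbers, chosen after seeing the data, gave 749 calls in Detroit and 0 in OECM1, and ended the call between lines of MMP13 (0.0547).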
